A study of Drosophila melanogaster with 6 samples.

Results

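The vacuolar proton ATPase (V-ATPase) genes were taken as the rows of the deposited RPKM table whose gene symbol starts with Vha, 19 of 14604 genes. RNA came from heads of Canton S (WT) males aged 3 to 5 days, given 2.5% sucrose alone (control, 3 libraries) or 2.5% sucrose with 5 mM paraquat (PQ, 3 libraries) for 12 h. PQ is a redox-cycling herbicide used in flies as a model of Parkinson's disease, and the study's methods give 30 males for each group. Reads were mapped to the dm3 genome by the authors, and levels are RPKM, reads scaled to gene length and to library depth, so that genes can be compared per length. The lowest entry of the table is 1 RPKM, which was treated as a floor under which levels are not resolved. The study's methods describe the replicates as independent biological samples and name more of them per feeding than the table holds. The 3 libraries of each group in the table were analysed here.

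The V-ATPase is a rotary pump that uses ATP to move protons across membranes. Its cytosolic V1 sector holds the catalytic head and the stalks, and its membrane V0 sector holds the ring of c subunits that carries protons. In neurons the pump acidifies synaptic vesicles, and the proton gradient drives their filling with transmitter. In all cells it acidifies endosomes and lysosomes, where hydrolases need a low pH, and it serves as a platform on which the growth kinase TORC1 is controlled.

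Of the 19 genes, 16 were above the floor in all 6 libraries and 3 (Vha100-3, Vha16-2 and Vha16-3) were at the floor of 1 RPKM in all 6. Of the 16, 12 had a mean level above that of 90% of the 9853 genes tested, and 9 above that of 95%. The lowest, VhaM9.7-1, still exceeded 62.6% of tested genes. Markers of the labelled tissue were present, with 6 of 6 neuron and 6 of 6 photoreceptor markers above the floor. Of 6 testis markers 5 stayed at the floor in every library, as did 6 of 6 gut and Malpighian tubule markers. Both libraries that carry the number 1 stood apart from the others for the V-ATPase genes, as described further on.

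The catalytic head of V1 is a ring of alternating A and B subunits, where ATP is hydrolysed. Vha55, the B subunit gene (dm3 chromosome 3R, 8449484 to 8453551), had 304, 343 and 340.2 RPKM in heads of the control group and 301, 328 and 339 RPKM after PQ. It is the only B subunit gene of the family, and its PQ-fed range lay almost wholly within the sucrose-fed range. The A subunit had 2 genes above the floor, which lie close together on chromosome 2L. Vha68-1 (13000766 to 13004142) measured 275, 334 and 323 RPKM in sucrose-fed and 279, 304 and 299.7 RPKM in PQ-fed heads. Vha68-2 (12974322 to 12978614) measured 87.4, 91.5 and 81.1 RPKM in sucrose-fed and 74.3, 86.3 and 91.9 RPKM in PQ-fed heads. Vha68-1 was thus the main A subunit transcript in every library, 3.15 to 3.98 times as high as Vha68-2. The encoded proteins are close in sequence, and how reads that match both genes were assigned is not given in the sources used here.

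The peripheral stalks, which hold the head still while the rotor turns, are made of E and G subunits. Vha26, subunit E (chromosome 3R, 1417453 to 1420429), was at 309, 370.3 and 355 RPKM in sucrose-fed and 299.0, 339 and 344 RPKM in PQ-fed heads. Vha13, subunit G (chromosome 3R, 15468975 to 15470134), was at 365, 469 and 430.5 RPKM in sucrose-fed and 349.7, 397 and 428 RPKM in PQ-fed heads. Both stalk genes ranked among the 3 highest of the family, and for both the library numbered 1 was the lowest of its feeding group.

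The central rotor of V1 is formed by D and F. Vha36, subunit D (chromosome 2R, 11428922 to 11430003), measured 168, 214 and 199 RPKM in sucrose-fed and 167, 191 and 195 RPKM in PQ-fed heads. Vha14, subunit F (chromosome 2R, 11566931 to 11567585), measured 165, 222 and 207 RPKM in sucrose-fed and 157, 186 and 198 RPKM in PQ-fed heads. These partners had nearly equal means over the 6 libraries (189.0 and 188.9 RPKM), and Vha36 was the higher in 3 of 6. The remaining V1 subunits control whether V1 and V0 are joined and active. VhaSFD, subunit H (chromosome 2L, 16723138 to 16727825), measured 145, 168 and 165 RPKM in sucrose-fed and 144, 155 and 164 RPKM in PQ-fed heads. Vha44, subunit C (chromosome 2R, 12212318 to 12224142), was the lowest V1 subunit, at 112, 123 and 127 RPKM in sucrose-fed and 115, 119 and 119 RPKM in PQ-fed heads.

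In V0, the c ring and its c″ member carry the protons. Vha16 (chromosome 2R, 2512747 to 2520633), the gene RefSeq now names Vha16-1, was the highest of all, at 502, 519 and 526 RPKM in sucrose-fed and 464, 529 and 506 RPKM in PQ-fed heads. VhaPPA1-1, the c″ subunit (chromosome 3R, 10728048 to 10729796), was at 184, 217 and 214 RPKM in sucrose-fed and 185, 201 and 204 RPKM in PQ-fed heads. VhaAC39, subunit d (chromosome X, 3774773 to 3777004), which links the ring to the rotor, was at 159, 195 and 187 RPKM in sucrose-fed and 157, 169 and 175 RPKM in PQ-fed heads. The lowest value of the c ring gene lay above the highest value of any other V0 gene of the family.

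Subunit a forms the channel through which protons reach and leave the ring, and its isoforms differ in where they are found. Vha100-1 (chromosome 3R, 24956772 to 24963702) is the isoform known from neurons and synaptic vesicles. It measured 135, 149 and 145 RPKM in sucrose-fed and 136, 141 and 142 RPKM in PQ-fed heads. Vha100-2 (chromosome 3R, 14216039 to 14224876) measured 37.8, 34.2 and 38.6 RPKM in sucrose-fed and 33.0, 39.5 and 41.1 RPKM in PQ-fed heads. Vha100-1 was 3.45 to 4.35 times as high as Vha100-2 in the same library. The small e subunit was represented by VhaM9.7-2 (chromosome 3L, 21532946 to 21533798), at 79.9, 95.1 and 88.3 RPKM in sucrose-fed and 69.5, 85.6 and 90.4 RPKM in PQ-fed heads. VhaM9.7-1 (chromosome 3L, 4186018 to 4186816), named VhaM9.7-c by RefSeq, was at 25.5, 22.7 and 23.7 RPKM in sucrose-fed and 24.3, 25.4 and 22.5 RPKM in PQ-fed heads. Its highest library was sucrose replicate 1, which was low for most of the family.

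**Figure D1:**
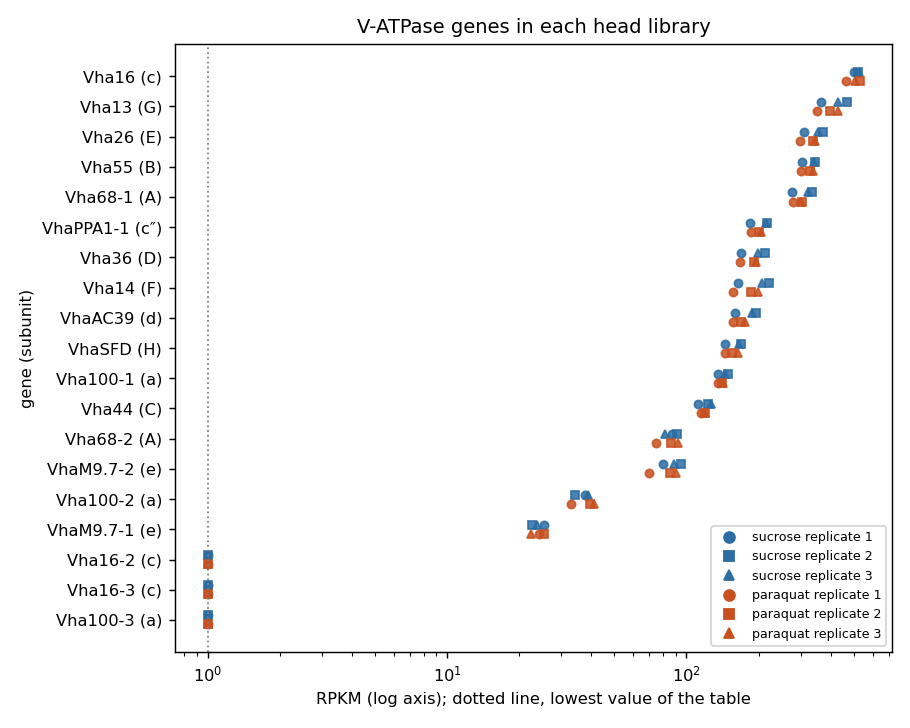
RPKM on a log axis for each of the 19 V-ATPase genes (subunit in parentheses), with 1 point per library, blue for sucrose-fed and orange for PQ-fed heads and a symbol for each replicate number. Gene means span 24.0 to 508 RPKM apart from 3 at the floor of 1 RPKM, and blue and orange points overlap for each gene above the floor.

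Ranked by mean level, the 16 genes formed 15 neighbouring pairs, and 11 of these kept their order in all 6 libraries. Only 5 pairs had ranges that did not overlap, Vha68-1 above VhaPPA1-1, Vha100-1 above Vha44, Vha44 above Vha68-2, VhaM9.7-2 above Vha100-2, and Vha100-2 above VhaM9.7-1. Vha36 and Vha14, and likewise Vha68-2 and VhaM9.7-2, did not differ beyond their spread. Across libraries a gene's highest value was 1.10 times (Vha100-1) to 1.42 times (Vha14) its lowest, against a range of 21.1-fold between the mean levels of the highest and the lowest gene.

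From work on the yeast and mammalian enzyme, subunits A, B, E, G and c are present in several copies in each complex, and C, D, F, H, a, d and c″ as 1 copy each. When RPKM was summed over the genes of each subunit, these classes did not overlap in any library. The 5 subunits with several copies ranged from 299 to 529 RPKM and the 7 with 1 copy from 112 to 243 RPKM. The ratio of the class medians lay between 2.14 (PQ replicate 3) and 2.23 (PQ replicate 1). This grouping was made with the levels already known and is given as a description. The sums include CG8310, an additional D subunit gene described with the genes listed under other symbols. Subunit e and the accessory proteins were placed in neither class. Subunit e, with CG1268 included, summed to 243 to 287 RPKM, close to or above the top of the 1-copy range. Of the accessory genes, CG31030 (284 to 372 RPKM) lay mostly within the several-copy range. CG8029 (151 to 185 RPKM) and CG8444 (166 to 199 RPKM) lay within the 1-copy range.

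**Figure D2:**
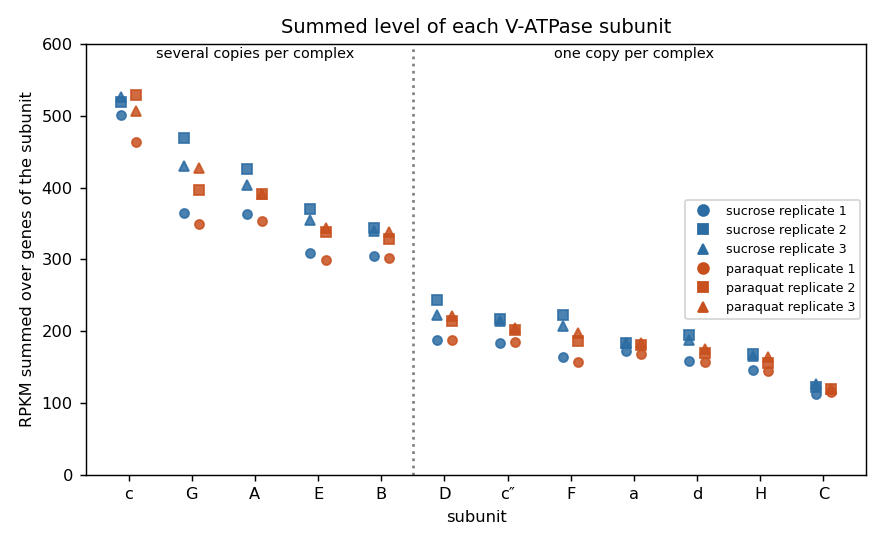
Summed RPKM of the genes above the floor for each subunit (vertical axis, from 0), with 1 point per library, blue for sucrose-fed and orange for PQ-fed heads. The 5 subunits held in several copies per complex lie at 299 to 529 RPKM and the 7 held as 1 copy at 112 to 243 RPKM in every library. Subunit e and the accessory proteins are not shown.

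Many subunits have further gene copies, several of which are known from expression surveys to be active chiefly in the testis. RefSeq (release 6) gives 33 genes a name that begins with Vha, and all 33 were found in the table by gene ID, 14 of them under another symbol. Of the 33, 13 were at the floor in all 6 libraries, the 3 named above and 10 of the 14. These 10 were CG6737 (Vha16-5), CG9013 (Vha16-4), CG12602 (Vha100-5), CG7678 (Vha100-4), CG5075 (Vha68-3), CG13167 (Vha36-2), CG1076 (Vha14-2), CG7026 (VhaPPA1-2), CG4624 (VhaAC39-2) and CG14909 (VhaM9.7-d). For subunits c, c″, d and F, head RNA thus came from 1 gene above the floor, while A, D and a each had 2 and e had 3.

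Several copies at the floor sit next to a member above the floor. CG5075 begins 171 bases after the end of Vha68-2, and CG7678 ends 513 bases before Vha100-2. CG7026 ends 2048 bases before VhaPPA1-1, which measured 184 to 217 RPKM over the 6 libraries. Vha16-3 and Vha16-2, with 1113 bases between them, were both at the floor. In the first 3 of these pairs the neighbour of the same subunit was at the floor in every library beside a member at 33.0 RPKM or more. Vha100-3, which lies within the interval of sano on the other strand, is among those at the floor.

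Of the 14 genes under other symbols, 4 were above the floor. CG1268 (VhaM9.7-a), a subunit e gene, was at 148, 169 and 169 RPKM in sucrose-fed and 149, 153 and 154 RPKM in PQ-fed heads. It was the main e transcript, 1.70 to 2.14 times as high as VhaM9.7-2. CG8310 (Vha36-3), a D subunit gene, was at 19.6, 29.9 and 23.5 RPKM in sucrose-fed and 20.6, 22.7 and 26.7 RPKM in PQ-fed heads. The other pair encode accessory glycoproteins of the AC45 type, which bind V0. CG8029 (VhaAC45) was at 157, 185 and 174 RPKM in sucrose-fed and 151, 164 and 174 RPKM in PQ-fed heads. CG31030 (VhaAC45RP) was higher than CG8029 in every library, at 285, 372 and 329 RPKM in sucrose-fed and 284, 301 and 306 RPKM in PQ-fed heads. CG8444 (ATP6AP2), a further accessory protein whose name does not begin with Vha, was added with its values in view, at 173, 199 and 199 RPKM in sucrose-fed and 166, 182 and 193 RPKM in PQ-fed heads. All 5 were thus well above the floor, 4 of them at levels of the main subunits.

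PQ feeding left the V-ATPase genes without a detected change. In limma on log2(RPKM + 0.5), with Benjamini-Hochberg adjustment over the 9853 genes tested, 0 of the 16 genes passed as higher and 0 as lower (adjusted p under 0.05). Over all genes tested, 0.0812% were called higher and 0% lower. Without adjustment, 0 of 16 had p under 0.05 in either direction, where 3.89% of all tested genes did, 2.21% as higher and 1.67% as lower. The smallest unadjusted p was 0.296 (VhaAC39, adjusted p = 0.951 from limma). For 0 of 16 genes did the PQ-fed libraries lie wholly above or wholly below the sucrose-fed ones, a pattern shown by 3.11% (higher) and 4.47% (lower) of all tested genes.

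The fold changes were small. Their 95% intervals are each for a single gene and not adjusted, so they set no limit on what the adjusted test could have missed. Vha14, subunit F, had the lowest log2 fold change, -0.13 (standard error 0.14, 95% interval -0.46 to 0.20). Vha100-2, the second a isoform, had the highest, 0.03 (standard error 0.10, interval -0.20 to 0.27). The narrowest interval was that of Vha100-1, the neuronal a isoform, -0.18 to 0.11 around -0.04. Over all 16 genes the intervals reached at most a 27.2% fall and a 20.4% rise. In bulk heads, fewer cells of a type and less RNA per cell cannot be told apart.

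The sign leaned to lower values. In all, 14 of 16 genes had a negative log2 fold change, among them 9 of 9 V1 genes and 5 of 7 V0 genes, where 57.8% of all tested genes were negative. The median was -0.05, beside -0.02 over all genes tested. With quantile normalization 12 of 16 were negative, since Vha16 and Vha55 turned positive, and the median was -0.02. The lean also depended on single libraries. Without paraquat replicate 1, 9 of 16 genes were negative and the median was -0.0066. Without paraquat replicate 2 or 3 it was -0.08 and -0.09, without sucrose replicate 1 it was -0.12, and without sucrose replicate 2 it was -0.02. Of the 5 other subunit genes above the floor, 5 were negative (median -0.08), and 0 passed in limma (0 with an unadjusted p under 0.05 as well).

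**Figure D3:**
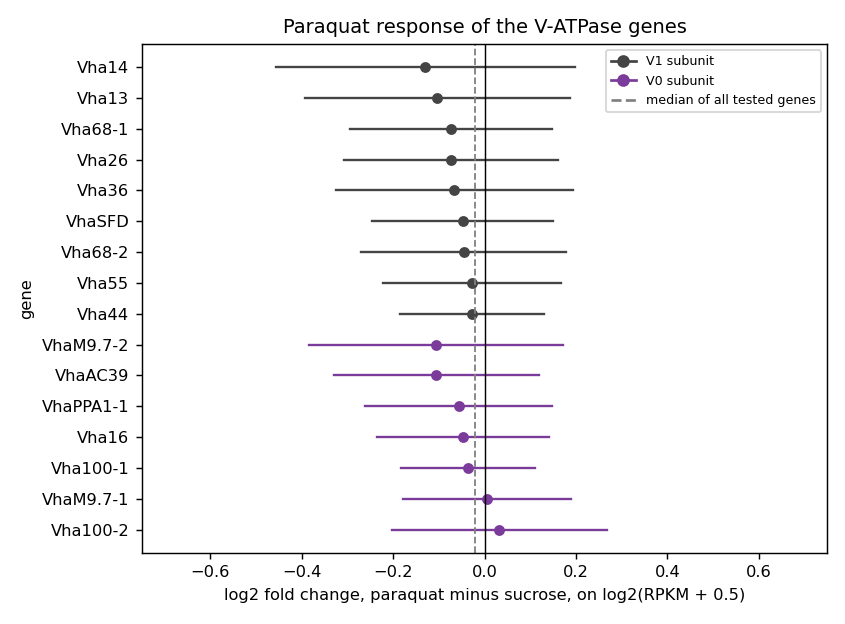
Log2 fold change of PQ-fed against sucrose-fed heads with its 95% interval from limma (horizontal axis) for the 16 V-ATPase genes above the floor, V1 in grey and V0 in purple. Points lie between -0.13 and 0.03, each interval crosses 0, and the dashed line is the median of all tested genes at -0.02.

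The genes also varied between libraries of the same feeding. For 13 of 16 genes the library numbered 1 was the lowest of its group among both the sucrose-fed and the PQ-fed heads. The exceptions were Vha68-2, Vha100-2 and VhaM9.7-1. The same held for 24.1% of all genes tested and for 42.8% of the 888 genes with a mean of at least 100 RPKM. As log2 differences from each gene's own mean, the median over the 16 genes was -0.10 in sucrose replicate 1 and -0.14 in PQ replicate 1. It was 0.11 and 0.08 in sucrose replicates 2 and 3, and 0.01 and 0.04 in PQ replicates 2 and 3. The medians over all genes tested stayed between -0.03 and 0.03. With quantile normalization the medians of the 16 genes were smaller in both libraries numbered 1, at -0.07 (sucrose) and -0.06 (PQ). In the same setting sucrose replicate 2 was at 0.04, below sucrose replicate 3 at 0.09, and PQ replicates 2 and 3 were at 0.03 and -0.00094. For 11 of 16 genes sucrose replicate 2 was the highest library of all 6. This was so for 33.5% of all genes tested, for 52.0% of the 888 genes with a mean of at least 100 RPKM and for 97.3% of 75 cytosolic ribosomal protein genes. The remaining members were Vha16, Vha44, Vha68-2, Vha100-2 and VhaM9.7-1.

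The 9 V1 genes had medians of -0.16 in PQ replicate 1 and 0.14 in sucrose replicate 2, and the 7 V0 genes -0.13 and 0.08. The difference between the sectors was not tested. Across the 16 genes the spread over the 6 libraries was larger for genes with short annotated spans (Spearman's rho = -0.63 between span and SD). Across all genes above the floor in every library the same rho was -0.31. Vha14, with 655 bases, had the largest SD on the log2 scale (0.19), and Vha100-1, with 6931 bases, the smallest (0.05). Genes are not independent replicates, and these points share the same 6 libraries. The 1103 genes of the table with spans under 1 kb had medians of -0.05 and -0.10 in the libraries numbered 1 and 0.15 in sucrose replicate 2.

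Markers of cell types also moved with these libraries. The 5 muscle markers found were lowest in the number 1 library of both groups, with medians of -0.25 in sucrose replicate 1 and -0.41 in PQ replicate 1. The fat body markers tested, 4 of 6, were high in the same libraries (0.46 and 0.45), and the summed level of the list ranged from 544 to 1036 RPKM in sucrose-fed and from 605 to 767 RPKM in PQ-fed heads. The 6 neuron markers had medians of 0.05 and 0.15 in the number 1 libraries and -0.30 in sucrose replicate 2. Their summed level ranged from 1003 to 1219 RPKM in sucrose-fed and from 1076 to 1227 RPKM in PQ-fed heads, and 0 of 6 were at the floor. In these 3 libraries the neuron medians had the opposite sign to those of the V-ATPase genes. The 6 photoreceptor markers had medians of the same sign as the V-ATPase genes, -0.06 in sucrose replicate 1, 0.11 in sucrose replicate 2 and -0.02 in PQ replicate 1. The 6 glia markers were at -0.05 and -0.15 in the libraries numbered 1 and at -0.01 in sucrose replicate 2. The part of cell makeup, of gene span and of read depth in the library pattern was not tested.

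**Figure D4:**
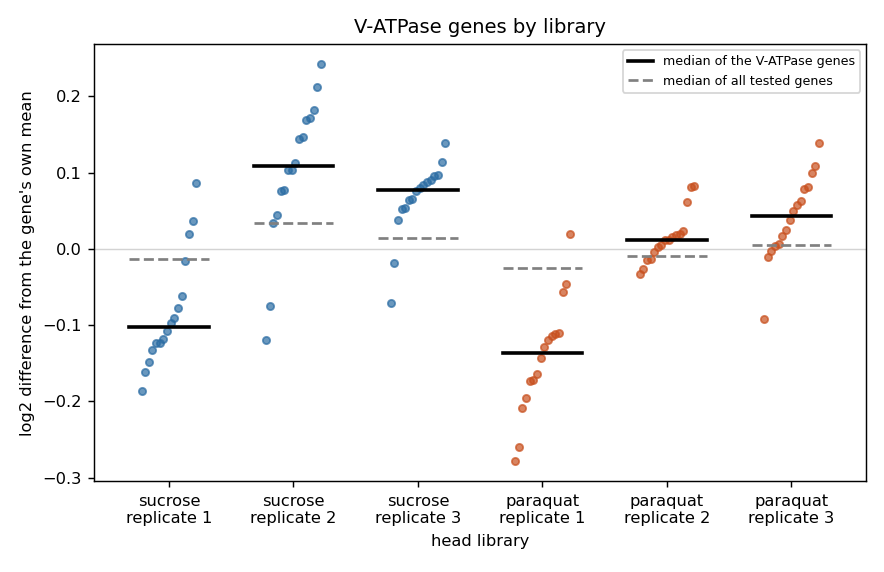
Log2 difference of each of the 16 V-ATPase genes from its own mean (vertical axis) in each head library, points ordered within a library, with the gene set's median as a black bar and that of all tested genes as a dashed bar. The medians lie at -0.10 and -0.14 in the libraries numbered 1 and between 0.01 and 0.11 in the other libraries.

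For isoform shares no difference between the feeding groups was detected. Vha68-1 made up 77.9% ± 2.04 (SD, n = 3) of summed A subunit RPKM in sucrose-fed and 77.6% ± 1.22 (SD, n = 3) in PQ-fed heads (exact permutation test, two-sided p = 0.90). Vha100-1 made up 78.2% ± 1.63 (SD, n = 3) of subunit a in sucrose-fed and 77.4% ± 1.46 (SD, n = 3) in PQ-fed heads (exact permutation test, two-sided p = 0.50). Vha36 made up 88.5% ± 0.980 (SD, n = 3) of subunit D in sucrose-fed and 88.4% ± 0.720 (SD, n = 3) in PQ-fed heads (exact permutation test, two-sided p = 0.80). CG1268 made up 58.9% ± 0.916 (SD, n = 3) of subunit e in sucrose-fed and 58.7% ± 2.04 (SD, n = 3) in PQ-fed heads (exact permutation test, two-sided p = 0.90). Each of these 4 differences was smaller than the SD of either group, and 3 against 3 allow no exact p below 0.10. With each library left out in turn the difference (PQ minus sucrose) changed sign for all 4, from -1.41 to 0.59 percentage points for Vha68-1, from -1.62 to 0.12 for Vha100-1, from -0.69 to 0.28 for Vha36 and from -1.38 to 0.45 for CG1268. Of the other e genes, the difference for VhaM9.7-2 also changed sign (-1.50 to 1.15). For VhaM9.7-1 it stayed positive (0.11 to 1.19), with a two-sided p = 0.60 from the exact permutation test on all libraries. The shares are of RNA per length, not of protein.

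Genes that work with the pump were counted from 4 lists. Of 20 genes for V1 and V0 assembly and for TORC1 control at the lysosome, 0 passed in limma and 0 had an unadjusted p under 0.05 (8 positive and 12 negative, median -0.01). Rbcn-3A, part of the RAVE-like complex that joins V1 to V0, was at 45.6, 30.1 and 43.0 RPKM in sucrose-fed and 46.3, 41.8 and 39.6 RPKM in PQ-fed heads. Its partner Rbcn-3B was at 38.0, 31.7 and 36.4 RPKM in sucrose-fed and 34.8, 36.9 and 33.5 RPKM in PQ-fed heads. Both assembly genes had their lowest value in sucrose replicate 2, the library in which most V-ATPase genes were highest. Mitf, the fly member of the TFEB family that drives V-ATPase and lysosomal genes, was at 23.7, 21.2 and 23.3 RPKM in sucrose-fed and 23.7, 21.9 and 22.05 RPKM in PQ-fed heads, a log2 fold change of -0.01 (standard error 0.07). In this list the PQ-fed libraries lay wholly below the sucrose-fed ones for Lamtor1 (CG14184 in the table), a lysosomal anchor of TORC1 (log2 fold change -0.13, adjusted p = 0.951 from limma). They lay wholly above for RagA-B (RagA in the table), a small GTPase of the same platform (0.09, adjusted p = 0.951 from limma), named here although outside the rule for named genes. These are 1 of 20 genes in each direction, near the 4.47% (lower) and 3.11% (higher) of all tested genes.

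Lysosomal genes had more positive than negative values. Of 26 list entries 25 were found and 19 were above the floor in at least 1 library, with 14 positive and 5 negative values around a median of 0.04, where 57.8% of all tested genes were negative. In limma 0 of 19 passed, and 0 had an unadjusted p under 0.05, as 3.89% of all tested genes did. CG6206 (LManII), a lysosomal mannosidase, was at 73.8, 61.0 and 54.1 RPKM in sucrose-fed and 80.8, 72.1 and 73.2 RPKM in PQ-fed heads, a log2 fold change of 0.27 (standard error 0.12, unadjusted p = 0.0596, adjusted p = 0.951 from limma). Hexo1, a hexosaminidase with a negative value, was at 47.1, 57.9 and 54.3 RPKM in sucrose-fed and 46.7, 46.0 and 49.0 RPKM in PQ-fed heads (log2 fold change -0.16, standard error 0.09). Cp1, the cathepsin L gene, was at 282, 253 and 234 RPKM in sucrose-fed and 268, 285 and 316 RPKM in PQ-fed heads (log2 fold change 0.18, standard error 0.10). For these 3 genes, the lowest by p in the list, the groups overlapped and limma's adjusted p was 0.951. Of 5 vesicular transmitter transporters, which use the proton gradient, 0 passed (median 0.03), and of 6 chloride channels and proton exchangers tested 0 passed (median -0.05). In both lists 0 genes had an unadjusted p under 0.05 in limma. Whether the pump and the lysosomal genes differed in their response was not tested.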

How the data were processed

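The authors deposited RPKM per gene from 50-bp paired-end reads mapped with TopHat2 2.0 to dm3, and the paper's methods name trimmed means of M-values as normalization. The tool that made the RPKM values is not given in the sources used here. Per library 34.8% to 35.5% of genes stand at exactly 1. Depth per library was nominally 25 M read pairs. By the paper's read counts, the libraries numbered 1 had the fewest read pairs among those used here. With no counts used, counting error is unknown and the precision is that between libraries. A table of the authors' own fold changes and p-values was not used.

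Values were tested as log2(RPKM + 0.5), a scale that understates changes of low genes, with limma 3.58.1 (R 4.3.3, mean-variance trend, two-sided, Benjamini-Hochberg) after leaving out 4751 genes at the floor in all libraries, and tested on simulated data. Members, lists and the test were chosen with earlier results of these data known. By rule, per-library values are given for the highest gene of each subunit, its paralogs above the floor in all libraries, any Vha gene past limma or with groups apart, and at most 4 genes per other list by p, with Mitf, Rbcn-3A and Rbcn-3B always. Libraries were not treated as paired. VhaSFD, Vha44, VhaM9.7-1, Vha100-1 and Vha100-2 overlap other annotated genes (highest, Hmgs at 26.2 RPKM with 548 shared bases in Vha44), and strand use in counting is not given in the sources used here. Alternatives are listed in the closing section. Names were matched in RefSeq (release 6) by gene ID. Figures were drawn with matplotlib 3.10.9 in Python 3.11.15.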

Additional observations from a re-analysis of the deposited data

How the results depend on the processing

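The 19 alternatives were other pseudocounts (0.1, 1), low-value filters (none, or a mean of 5 RPKM or more), scalings (M-value trimmed means, quantiles, the median gene), eBayes settings (robust, or with no trend), library quality weights, the replicate block, each library left out, floor values set to 0 (isoform shares alone) and, chosen after seeing the data, both libraries numbered 1 left out. Of 288 gene fits 0 passed limma's threshold (smallest adjusted p = 0.171). With the replicate block the counts of V-ATPase genes called stayed at 0 higher and 0 lower, the median at -0.052, and no call changed. Deviations of same-numbered libraries from their group means correlated across genes with r of 0.41, 0.06 and 0.05 for numbers 1, 2 and 3, so only number 1 went best with its own number and the numbers were not taken as pairs. The median over the 16 genes kept its sign throughout, from -0.12 (without sucrose replicate 1) to -0.0066 (without paraquat replicate 1). The sign changed in 20 fits of 9 genes, none past the threshold. With quantile normalization Vha16 was at 0.0053 and Vha55 at 0.025. Vha68-2 was at 0.065 with library quality weights and at 0.047 without both libraries numbered 1. With each library left out in turn, ranges that cross 0 were -0.029 to 0.13 for Vha100-2, -0.090 to 0.0056 for Vha16, -0.16 to 0.0079 for Vha36, -0.079 to 0.010 for Vha44, -0.084 to 0.020 for Vha55, -0.11 to 0.041 for Vha68-2, -0.034 to 0.053 for VhaM9.7-1, -0.18 to 0.0063 for VhaM9.7-2 and -0.11 to 4.2e-05 for VhaSFD. The cause was not tested. With 1 library left out a group has 2 samples, whose spread is pooled with the other group. The planned promoter search was not run. With 3 libraries a group and no counts used, small changes are not detectable. The intervals given are for single genes without adjustment. A call needed an adjusted p under 0.05 over 9853 genes, so changes larger than an interval's half-width could also be missed.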
